A study of Rattus norvegicus with 8 samples.

Results

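The 7 genes Actc1, Tnnt2, Tnnc1, Casq2, Pln, Ryr2 and Atp2a2 encode parts of the cardiac contractile filaments and of the calcium store that drives them. Each was measured by the probe sets of its symbol on the array, and all 7 had 1 probe set among the 14506 genes with a single symbol. They were chosen with their levels on these same 8 arrays already known, among them the values of the Brown-Norway ductus. Their levels and differences are therefore a description, and no test is given for a single member.

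The arrays came from neonatal rats of the inbred strains Fischer344 (F344) and Brown-Norway (BN), at full term and 1 h after birth. In each strain the ductus arteriosus (DA), the fetal vessel between pulmonary artery and aorta that closes after birth, was set beside the aorta, which gave 4 groups of 2 arrays each. The BN strain serves in the field as a model in which the ductus fails to close by itself. No allele, agent or treatment is named for any group, and all animals were of the same age. RNA was taken from pooled tissues, and the labels do not say whether the replicates came from separate animals or litters, so the p-values speak only of the spread among these arrays, which may be technical. In such bulk RNA, fewer cells of a type and less RNA per cell cannot be told apart.

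In heart muscle, calcium enters the cytosol through the ryanodine receptor of the sarcoplasmic reticulum, binds troponin C on the actin filament and lets myosin pull. A calcium pump then returns it to the store, where calsequestrin holds it, and phospholamban restrains the pump. Vascular smooth muscle contracts through calmodulin and phosphorylation of myosin rather than through troponin, but it too uses a calcium store with a pump and release channels. Cardiac actin is also made in developing striated and smooth muscle.

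The promoters of the 4 members whose levels varied most between groups or replicates, and which the RefSeq promoter table (build GRCr8) holds, are shown so that their letters stand beside the values. Tnnc1 is not printed. Each window runs from 250 bases before the start to 30 after it, 5′ to 3′ on the gene's strand. Actc1 lies on the minus strand at chr3:121271798-121272077. Tnnt2 is on the plus strand at chr13:49818873-49819152, the more upstream of 2 listed starts. Casq2 is on the plus strand at chr2:192214306-192214585, and Pln on the plus strand at chr20:33172244-33172523. Capitals mark matches to the motifs searched on both strands.
Actc1: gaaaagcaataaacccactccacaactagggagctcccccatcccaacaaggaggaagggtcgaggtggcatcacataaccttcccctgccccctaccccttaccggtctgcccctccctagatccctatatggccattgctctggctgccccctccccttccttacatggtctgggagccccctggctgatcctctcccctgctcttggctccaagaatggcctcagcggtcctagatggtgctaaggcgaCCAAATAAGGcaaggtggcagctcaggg
Tnnt2: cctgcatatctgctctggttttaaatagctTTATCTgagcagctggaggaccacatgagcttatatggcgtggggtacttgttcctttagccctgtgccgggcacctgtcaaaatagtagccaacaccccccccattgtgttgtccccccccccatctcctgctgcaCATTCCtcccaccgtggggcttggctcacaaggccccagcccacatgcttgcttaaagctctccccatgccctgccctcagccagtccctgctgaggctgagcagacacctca
Casq2: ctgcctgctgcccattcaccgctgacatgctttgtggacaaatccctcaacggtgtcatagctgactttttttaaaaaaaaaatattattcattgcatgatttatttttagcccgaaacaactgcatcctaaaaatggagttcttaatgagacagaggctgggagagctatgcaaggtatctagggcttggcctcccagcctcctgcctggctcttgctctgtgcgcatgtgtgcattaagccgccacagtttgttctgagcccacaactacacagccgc
Pln: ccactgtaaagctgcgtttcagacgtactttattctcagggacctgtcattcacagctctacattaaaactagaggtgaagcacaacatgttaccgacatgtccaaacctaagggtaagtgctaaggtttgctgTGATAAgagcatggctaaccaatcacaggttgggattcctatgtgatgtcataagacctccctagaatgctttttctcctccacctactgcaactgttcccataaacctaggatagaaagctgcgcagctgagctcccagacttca

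The motifs were the CArG box bound by serum response factor (CC, any 6 of A or T, then GG), the MEF2 site (CTA, any 4 of A or T, then TAG), GATA sites (AGATAA or TGATAA, or either with G as the last letter), the M-CAT element (CATTCC), a T-box half-site (AGGTGTG), the NKX2-5 site (TCAAGTG or TTAAGTG) and the TATA box (TATAAA). Some of these can overlap when the same bases fit more than a single motif, but no printed matches did. The Actc1 window held a CArG box at bases 3 to 12 after the start, a motif found in 1.59% of all 33469 windows of that length. The Tnnt2 window held a GATA site at -220 to -215 (in 29.0% of windows) and an M-CAT element at -83 to -78 (13.5%). The Pln window held a GATA site at -116 to -111, and the Casq2 window held none of the 7 motifs as spelled here, while looser spellings were not searched. These matches are descriptions of letters and not of bound sites.

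The array medians lay between 6.96 and 7.05 on the log2 scale, and the median of all values was 7.01. Replicates lay furthest apart in BN DA, with an SD over genes of 0.349 for the difference between both arrays, against 0.196 to 0.258 in the other groups. BN DA replicate 1 also carried higher markers of thymocytes and lymphocytes, with a mean of 7.07 over 9 genes against 5.78 to 5.89 on the other 7 arrays. The 10 smooth muscle markers were above the median of all values on every array, with array means of 10.86 to 11.42. For these reasons both BN DA arrays are given apart throughout.

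Among the sarcomere genes, Actc1 and Tnnt2 were high on a single array, BN DA replicate 2, and Tnnc1 was high on the other BN DA array. Actc1 encodes cardiac alpha-actin of the thin filament (Entrez 29275). Its log2 values were 7.88 and 7.86 in the DA of F344, 7.58 and 7.45 in its aorta, 7.98 and 9.71 in the DA of BN, and 7.58 and 7.98 in its aorta (replicates 1 and 2). The level on BN DA replicate 2 was thus 3.31-fold that of its replicate, and replicate 1 was 0.10 above the higher F344 DA array. The group means were 7.87 ± 0.02 and 7.51 ± 0.09 for DA and aorta in F344, and 8.85 ± 1.22 and 7.78 ± 0.28 in BN (SD, n = 2). DA was above aorta by 0.36 ± 0.43 (SE) in F344 and by 1.06 ± 0.43 in BN. Every such SE rests on a spread shared by all 4 groups. For Actc1, Tnnt2, Tnnc1 and Casq2 the BN DA replicates add most to it, so it does not show the spread within F344. The BN difference was 1.93 without BN DA replicate 1 and 0.20 without replicate 2, so its size rested on the single array. In the order BN DA, F344 DA, BN aorta and F344 aorta, only F344 DA and BN aorta overlapped among neighbours. The aortas of BN and F344 were apart by less than the rounding, at 7.58. Actin genes share much of their coding sequence, and whether the probe set also binds related transcripts was not tested. The skeletal actin gene Acta1 ran the other way, at 9.94 on BN DA replicate 1 and 9.01 on replicate 2, and the smooth muscle actin gene Acta2 stayed between 13.64 and 13.82 on all arrays.

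Tnnt2 encodes cardiac troponin T, which ties the troponin complex to tropomyosin (Entrez 24837). It measured 6.91 and 7.35 in the DA of F344, 6.86 and 6.80 in its aorta, 7.47 and 9.24 in the DA of BN, and 6.77 and 7.27 in its aorta. BN DA replicate 2 was 3.42-fold above replicate 1, and replicate 1 was 0.12 above the higher F344 DA array. The arrays of BN DA and F344 DA did not overlap, whereas the aortas of the 2 strains did. DA exceeded aorta by 0.30 ± 0.46 (SE) in F344 and by 1.34 ± 0.46 in BN, and BN exceeded F344 by 1.23 ± 0.46 in DA and by 0.19 ± 0.46 in aorta. Without BN DA replicate 1 the strain difference in DA was 2.11, and without replicate 2 it was 0.34. The order of the groups was that of Actc1, but among its neighbours only BN DA and F344 DA were apart.

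Tnnc1 encodes the calcium-binding troponin subunit of cardiac and slow skeletal muscle (Entrez 290561). Its values were 9.93 and 9.75 in the DA of F344, 9.42 and 9.43 in its aorta, 11.02 and 9.13 in the DA of BN, and 10 and 9.12 in its aorta. In both BN tissues replicate 1 was the higher array, 3.72-fold in DA and 1.84-fold in aorta, whereas the F344 replicates lay within 0.18 of each other. The DA-aorta difference in BN was 0.51 ± 0.50 (SE), and it turned from 1.46 without BN DA replicate 2 to -0.43 without replicate 1. The strain difference in DA, 0.23 ± 0.50, likewise ran from 1.18 to -0.71. Both F344 DA arrays lay above both F344 aorta arrays (difference 0.41 ± 0.50 SE). In the order of the means, BN DA, F344 DA, BN aorta and F344 aorta, every neighbouring pair overlapped. The mean of the erythroid markers, over 7 of 10 listed genes, was also higher on replicate 1. It was 8.71 and 7.61 in the DA of BN and 8.27 and 7.60 in its aorta, beside 8.36 and 7.51 in the DA of F344 and 7.89 and 7.27 in its aorta. Not all 7 followed: 1 was higher on replicate 2 in BN DA and 2 in BN aorta. The median differences, replicate 2 minus replicate 1, were -1.09 in BN DA and -0.26 in BN aorta. The haem synthesis gene Alas2 was at 10.95 and 8.89 in BN DA and at 10.11 and 8.90 in BN aorta. In F344 it was at 10.90 and 9.27 in DA and at 9.70 and 8.71 in aorta. Thymocyte markers were high on BN DA replicate 1, but not on BN aorta replicate 1 (mean 5.82). The part of erythroid or thymocyte RNA in the Tnnc1 values was not tested.

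**Figure D1:**
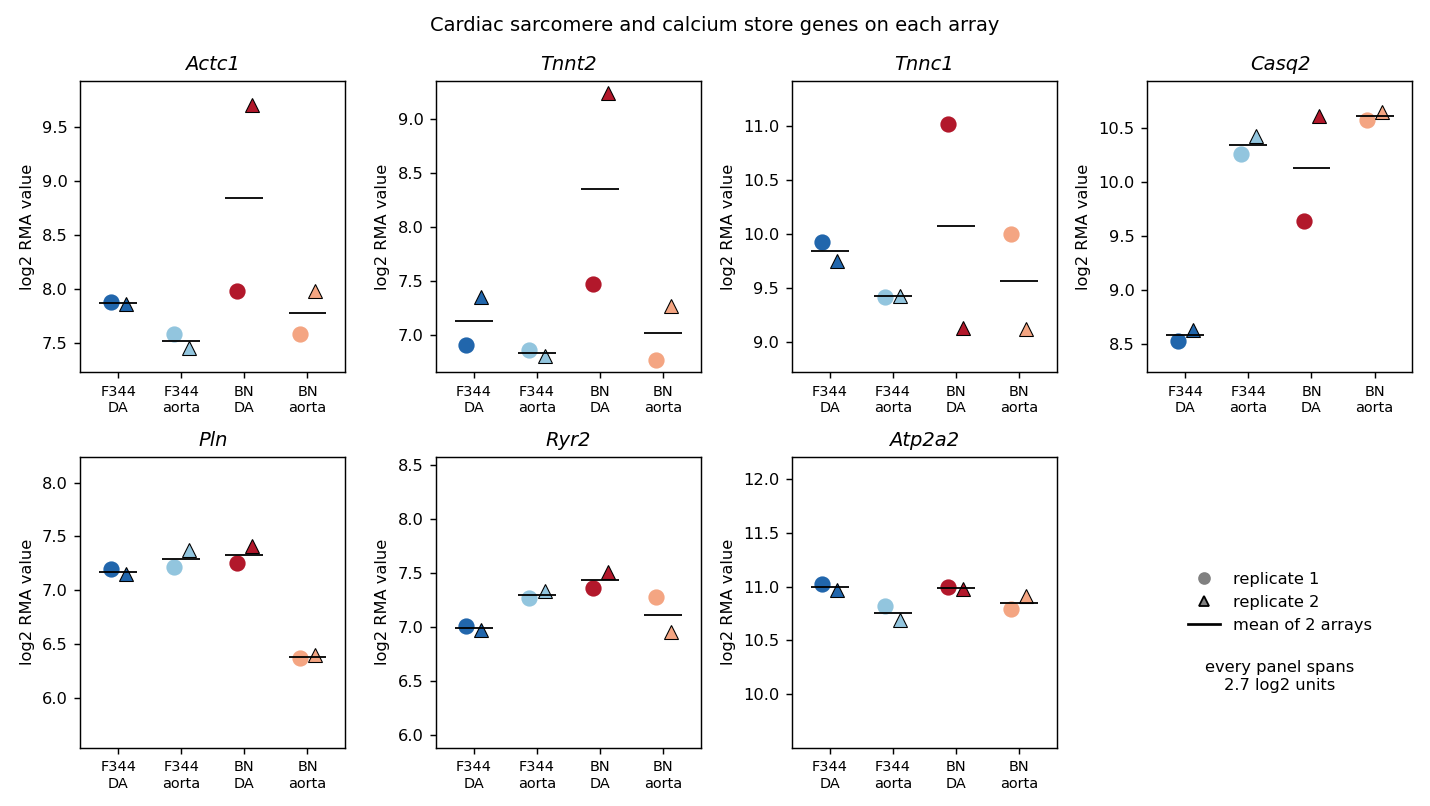
Log2 RMA values (vertical axis) of the 7 members on each array, by strain and tissue (horizontal axis). Circles are replicate 1, triangles replicate 2 and bars the mean of 2 arrays. Actc1 and Tnnt2 stand out on BN DA replicate 2 (9.71 and 9.24), Tnnc1 on BN DA replicate 1 (11.02), Casq2 is low on both F344 DA arrays (8.53 and 8.63) and Pln on both BN aorta arrays (6.37 and 6.40).

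Of the calcium store genes, Casq2 was low in F344 DA and Pln was low in BN aorta, both on each array of the group. Casq2 encodes cardiac calsequestrin, the calcium-binding protein inside the store (Entrez 29209). It measured 8.53 and 8.63 in the DA of F344, 10.26 and 10.43 in its aorta, 9.64 and 10.62 in the DA of BN, and 10.58 and 10.65 in its aorta. The F344 DA arrays lay 1.01 or more below every other array. BN DA replicate 1 was between F344 DA and the aortas, and replicate 2 lay between the BN aorta arrays. The F344 DA mean was 3.4-fold below that of F344 aorta (difference -1.76 ± 0.26 SE), and the BN DA mean was 1.4-fold below that of BN aorta (-0.49 ± 0.26). The BN tissue difference was -0.97 without BN DA replicate 2 and 0 without replicate 1. BN DA exceeded F344 DA by 1.55 ± 0.26, by 2.03 without BN DA replicate 1 and by 1.06 without replicate 2. In the order BN aorta, F344 aorta, BN DA and F344 DA, only F344 aorta and BN DA overlapped among neighbours.

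Pln encodes phospholamban, the inhibitor of the calcium pump (Entrez 64672). Its values were 7.20 and 7.15 in the DA of F344, 7.22 and 7.37 in its aorta, 7.25 and 7.41 in the DA of BN, and 6.37 and 6.40 in its aorta. The BN aorta arrays were 0.75 or more below all others, and the remaining 6 arrays spanned 0.26. Both BN aorta values lay below the median of all values (7.01), and the others, at 7.15 to 7.41, lay little above it. No detection call shows whether such levels are background. BN DA was 1.93-fold above BN aorta (difference 0.95 ± 0.12 SE), and BN aorta was 1.88-fold below F344 aorta (-0.91 ± 0.12). These comparisons share the BN aorta arrays. The tissue difference in F344 was -0.12 ± 0.12, and 0.09 after centring on brighter genes. Over the alternatives the BN tissue difference stayed between 0.87 and 1.03, and the BN DA replicates differed by 0.16. In the order BN DA, F344 aorta, F344 DA and BN aorta, the first pair overlapped.

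Ryr2, the ryanodine receptor through which calcium leaves the store (Entrez 689560), spanned 0.56 over the arrays. Its values were 7.01 and 6.97 in the DA of F344, 7.27 and 7.33 in its aorta, 7.36 and 7.51 in the DA of BN, and 7.28 and 6.95 in its aorta. DA was below aorta on each array in F344 (-0.32 ± 0.14 SE) and above it in BN (0.32 ± 0.14), with the BN aorta replicates 0.33 apart. Both differences are of the size of that replicate gap, and the F344 difference was -0.10 after centring on brighter genes. Atp2a2, the calcium pump of the store (Entrez 29693), varied least, by 0.33 in all. It measured 11.02 and 10.97 in the DA of F344, 10.82 and 10.69 in its aorta, 11 and 10.98 in the DA of BN, and 10.79 and 10.91 in its aorta. Both DA groups had a mean of 10.99, and DA was above aorta by 0.24 ± 0.12 (SE) in F344 and by 0.14 ± 0.12 in BN. For Ryr2 the order was BN DA, F344 aorta, BN aorta and F344 DA, with overlap between all neighbours but the first pair, and for Atp2a2 only BN DA and BN aorta were apart among neighbours.

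**Figure D2:**
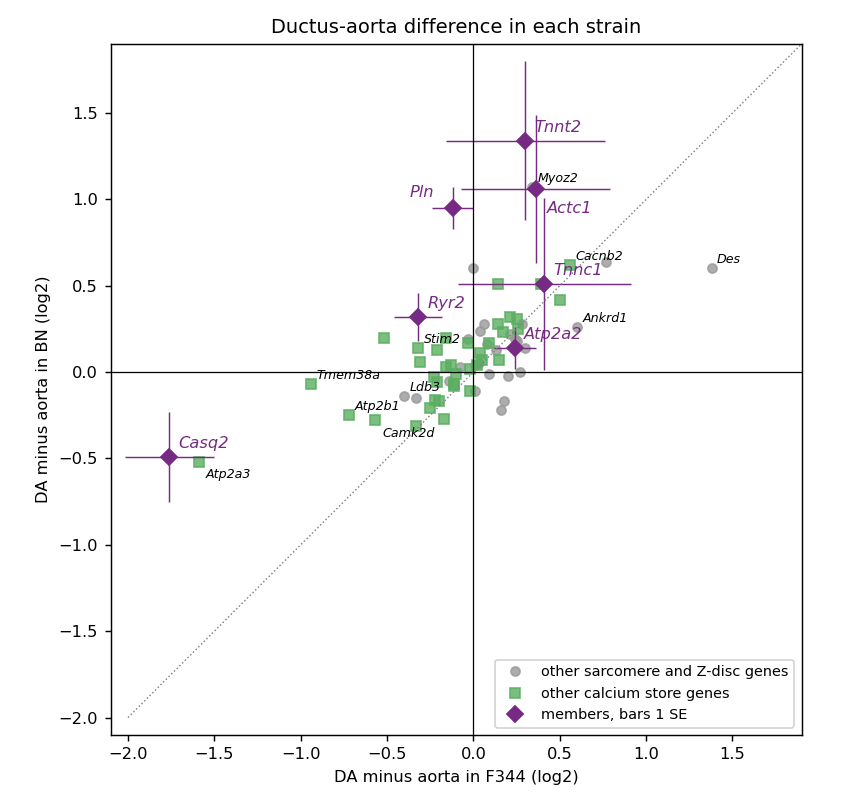
Difference of group means, DA minus aorta, in F344 (horizontal axis) and BN (vertical axis), in log2 units. Diamonds are the 7 members with bars of 1 SE, circles and squares the other sarcomere and calcium store genes, and the dotted line marks equal differences. All members but Atp2a2 lie above the line, Tnnc1 by only 0.10 ± 0.71 (SE). Among them are Tnnt2, Actc1 and Pln (1.34, 1.06 and 0.95 in BN) and Casq2, which lies at the left (-1.76 in F344).

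The median difference of the members was 0.24 in F344 and 0.51 in BN for DA against aorta, beside -0.04 and 0 over all genes. For BN against F344 it was 0.45 in DA and 0.13 in aorta, beside 0 in both. Each group enters 2 of these comparisons, so they share arrays. As the members were chosen on these arrays, no call or p is given for them.

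Arrays of DA and aorta did not overlap for 7 of 7 members in F344, where this held for 67.4% of all genes, and for 5 of 7 in BN (37.3%). For Actc1 in BN the lowest DA and the highest aorta array were apart by less than the rounding, both at 7.98. In BN against F344 it held for 5 of 7 members in DA (50.1%) and 3 of 7 in aorta (35.7%). For Actc1 in aorta the lowest BN and the highest F344 array were again apart by less than the rounding, both at 7.58. The BN DA replicates were at least 1 log2 unit apart for Actc1 and Tnnt2, with replicate 2 higher (0.607% of all genes), and for Tnnc1, with replicate 1 higher (0.772%). Casq2 was just short of this at 0.97. In the other 3 groups no member reached it, and the largest such gap was 0.88 for Tnnc1 in BN aorta. The shares of all genes with replicate 2 or replicate 1 higher by that much were 0.0414% and 0.0758% in the DA of F344, 0.0758% and 0.062% in its aorta, and 0.0689% and 0.062% in the aorta of BN. For Pln and Ryr2 the DA arrays lay all below aorta in F344 and all above it in BN, as for 3.8% of all genes.

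**Figure D3:**
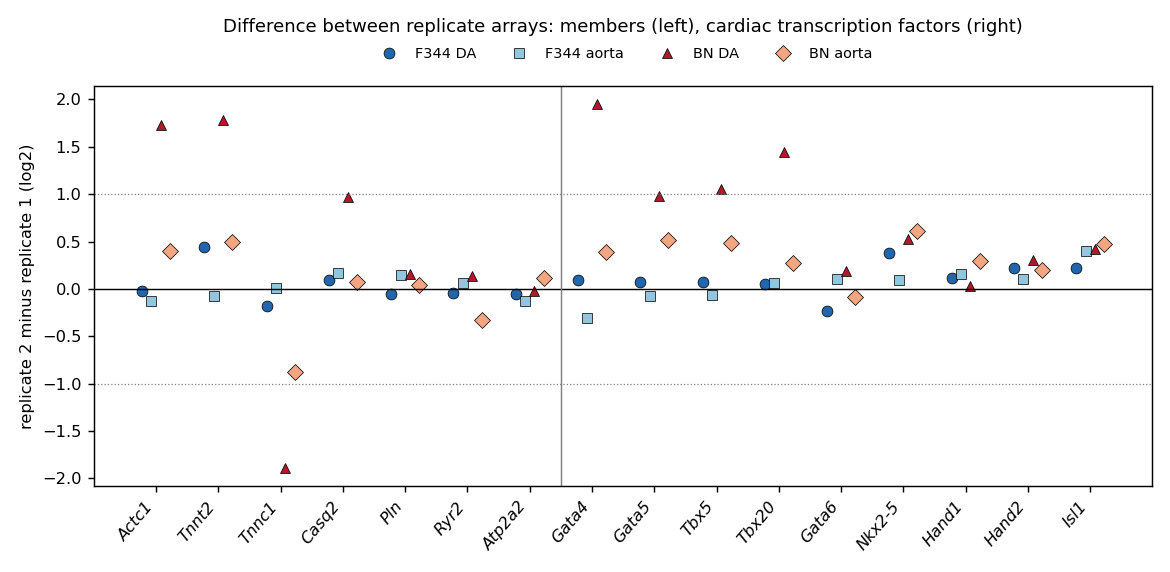
Replicate 2 minus replicate 1 in log2 units (vertical axis) for the members and for cardiac transcription factor genes (horizontal axis), in each of the 4 groups by colour and symbol. Dotted lines mark differences of 1. In BN DA the difference was 1.73 for Actc1, 1.78 for Tnnt2 and -1.89 for Tnnc1, beside 1.95 for Gata4 and 1.45 for Tbx20.

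Some transcription factor genes of heart development were also highest on BN DA replicate 2. Gata4 measured 6.95 and 8.90 on the BN DA replicates and 6.24 to 6.87 on the other 6 arrays. Tbx20 was at 8.42 and 9.87 against 6.53 to 7.37, so it was high on both BN DA arrays and not on replicate 2 alone. Gata5 was at 7.53 and 8.51, and Tbx5 at 6.27 and 7.33. Gata6 (11.19 and 11.38), Nkx2-5 (6.45 and 6.98) and Hand1 (7.0 and 7.02) differed by 0.53 or less. All 9 measured factors were higher on replicate 2, with a median difference of 0.53, where 55.3% of all genes were higher on it. Replicate 2 was also the higher for 8 of the 9 in BN aorta (median 0.39, 54.1% of all genes) and in F344 DA (median 0.10, 48.8%), and for 6 of the 9 in F344 aorta (median 0.10, 55.7%).

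Other markers of heart muscle cells were not higher on this array as a list. Of 21 listed cardiomyocyte markers 19 were measured. In BN DA 7 of the 19 were higher on replicate 2, and their median difference between the replicates was -0.02. Corin, which encodes the protease that activates natriuretic peptides, was the only 1 of the 19 higher there by at least 1 log2 unit (9.43 and 10.47). The atrial peptide gene Nppa was at 6.06 and 6.17 on the BN DA replicates, the myosin heavy chain genes Myh6 at 6.52 and 6.51 and Myh7 at 6.49 and 6.44, the ventricular light chain gene Myl2 at 5.89 and 5.55, and the cardiac troponin I gene Tnni3 at 6.31 and 6.29. Of the 19, 12 were below the median of all values on every array, between 5.30 and 6.96, and the table holds no detection call that would show whether such levels are background. The mean of the list was 6.75 and 6.84 in the DA of F344, 6.78 and 6.86 in its aorta, 7.0 and 6.96 in the DA of BN, and 6.88 and 7.01 in its aorta. The 13 measured skeletal muscle markers had array means of 6.51 to 6.79. Myh11, the smooth muscle myosin heavy chain gene, was at 11.73 to 12.45. The part of admixed heart muscle in the values of Actc1 and Tnnt2 was not tested.

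**Figure D4:**
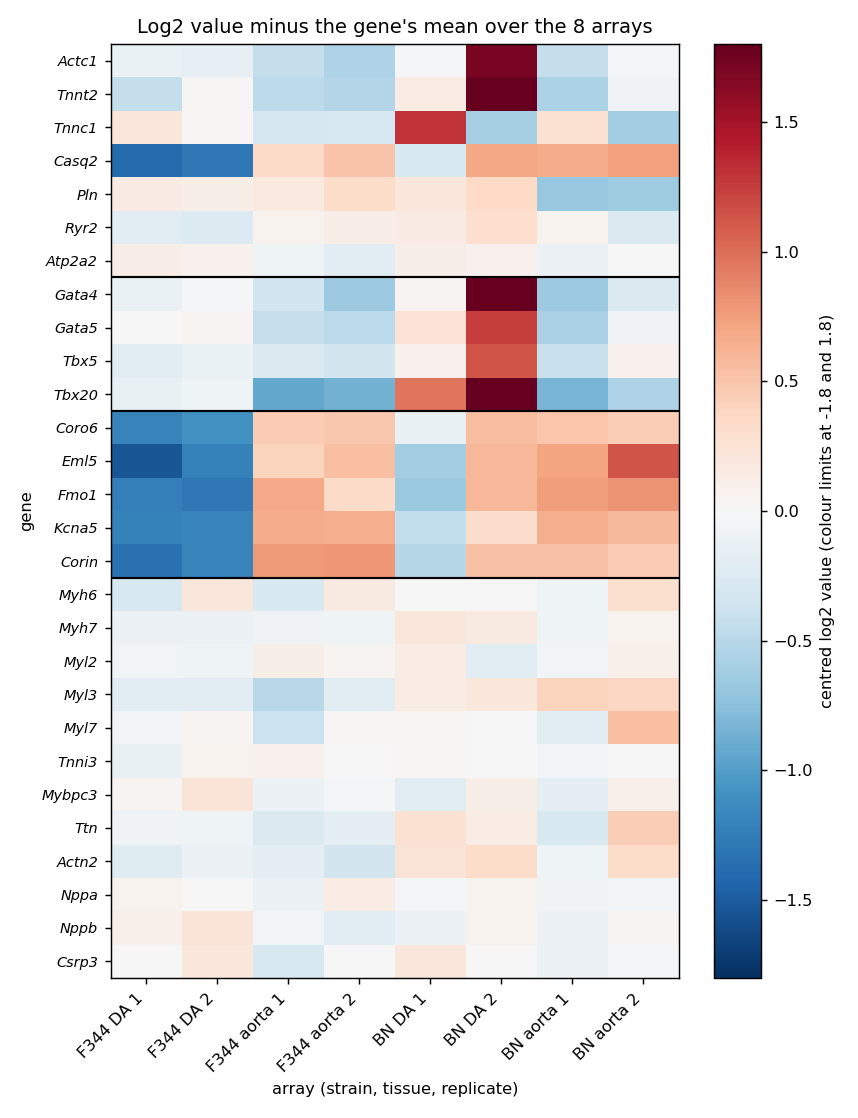
Log2 values minus each gene's mean over the 8 arrays (colour, limits at -1.8 and 1.8) for genes (vertical axis) on each array (horizontal axis). From the top the blocks hold the members, 4 of 9 measured cardiac transcription factors, genes with a course like that of Casq2, and some of the 19 measured cardiomyocyte markers. The factors shown are those that differed most between the BN DA replicates. Corin, also a cardiomyocyte marker, stands in the block of Casq2. Gata4, Gata5, Tbx5 and Tbx20 are highest on BN DA replicate 2, as are Actc1 and Tnnt2, whereas Tnni3 stays between 6.15 and 6.37 and Myl3 is highest on the BN aorta arrays (7.59 and 7.57).

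Genes of like course were found by the root-mean-square difference between centred values over the 8 arrays, which is a description of likeness only. For Actc1 the nearest were Gata4 (0.17), the cartilage matrix gene Cnmd (0.18), Gata5 (0.22) and Tbx5 (0.23). For Tnnt2 they were Gata4 (0.15), Opcml (0.26), Cnmd (0.27) and Gata5 (0.28). For Tnnc1 they were Cd74, the invariant chain of MHC class II (0.20), Casp4 (0.24), the ribosomal protein gene Rps15a and the Mediator subunit gene Med21 (0.25 each). For Casq2 they were the coronin gene Coro6 (0.17), Eml5 (0.20), and Fmo1 and the potassium channel gene Kcna5 (0.21 each). Coro6 was at 7.60 and 7.71 in the DA of F344, 9.27 and 9.29 in its aorta, 8.67 and 9.36 in the DA of BN, and 9.30 and 9.25 in its aorta, so BN DA replicate 1 was again the array in between. Corin, set beside Casq2 after its values were seen, was at 8.61 and 8.75 in F344 DA and between 10.40 and 10.73 in both aortas, with BN DA replicate 1 in between. For Pln the nearest were Vom1r66 (0.12), Prg4 and Or6c1h (0.19 each) and Or4p19 (0.20). The chemosensory receptor genes among these belong to families of many copies, so their values are uncertain.

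The members were set beside 65 other measured genes of the sarcomere and of calcium handling. Of 36 listed sarcomere and Z-disc genes 27 were measured. In F344 DA against aorta 2 were called higher and 0 lower at a Benjamini-Hochberg adjusted p under 0.05 (limma), where 8.87% and 5.12% of all genes were called (14.0% in all). Des, the intermediate filament gene of muscle, rose by 1.38 ± 0.28 (SE) in F344 DA (limma adjusted p = 0.0119, both DA arrays above both aorta arrays). Ankrd1, which encodes a stretch-responsive protein of the sarcomere, rose by 0.60 ± 0.12 (limma adjusted p = 0.0124). The Des call was lost without F344 DA replicate 1 (difference 1.19, limma adjusted p = 0.0889) and without F344 aorta replicate 1 or 2 (limma adjusted p = 0.0692 and 0.0689). The Ankrd1 call was lost whichever of the 4 F344 arrays was left out (limma adjusted p = 0.0621 to 0.113). In BN, 1 was called higher and 0 lower (0.986% and 0.82% of all genes, 1.81% in all). This was Myoz2, which encodes a Z-disc protein that binds calcineurin. It measured 6.16 and 6.26 in the DA of F344, 5.85 and 5.88 in its aorta, 6.99 and 6.97 in the DA of BN, and 5.84 and 5.97 in its aorta. Unlike Actc1 and Tnnt2 it was even between the BN DA replicates, and it rose in BN DA by 1.07 ± 0.12 (limma adjusted p = 0.004). All its values lay below the median of all values (7.01), and no detection call shows whether such levels are background. With only the BN arrays fitted the call was lost (limma adjusted p = 0.0738). The call was lost without BN aorta replicate 1 (1.01, limma adjusted p = 0.0622).

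Between the strains, Myoz2 was higher in BN than in F344 DA by 0.77 ± 0.12 (SE, limma adjusted p = 0.015), and Ldb3, a Z-disc gene, by 0.53 ± 0.12 (limma adjusted p = 0.0408). With only the DA arrays fitted the Myoz2 call was lost (limma adjusted p = 0.0646). Without F344 DA replicate 1 or 2 the Myoz2 call was lost (limma adjusted p = 0.0853 and 0.12). These 2 of 27 were called higher and 0 lower, beside 2.43% and 2.1% of all genes (4.53% in all). In aorta 0 of 27 were called higher or lower (0.0827% and 0.0758% of all genes, 0.159% in all). The Ldb3 call was lost under 13 of 18 alternatives, among them each of the 8 fits that leave out an array, with limma adjusted p up to 0.22. The sarcomere list had median differences of 0.13 and 0.14 for DA against aorta in F344 and BN. Of the genes not called, Cryab was 1.05 higher on BN DA replicate 1 than on replicate 2, and Myom1 0.63. Nexn (0.29) was also higher on replicate 1, whereas Myocd was 0.26 higher on replicate 2.

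Of 40 listed genes of the calcium store and its refilling 38 were measured. In F344 DA against aorta 1 was called higher and 4 lower, beside 8.87% and 5.12% of all genes. Atp2a3, a second calcium pump of the store, showed the largest fall, by 1.59 ± 0.24 on the log2 scale (SE, limma adjusted p = 0.00338). Its values were 7.16 and 7.15 in DA and 8.62 and 8.86 in aorta for F344, and 8.11 and 7.32 in DA and 8.41 and 8.05 in aorta for BN. Atp2a2 thus kept a nearly even level where its relative did not. Tmem38a, a potassium channel of the store membrane, fell by 0.94 ± 0.15 (limma adjusted p = 0.00393). Both calls held under all 18 alternatives, with limma adjusted p of at most 0.0357 for Atp2a3 and 0.046 for Tmem38a. The surface calcium pump gene Atp2b1 fell by 0.72 ± 0.13 (limma adjusted p = 0.00724) and the calmodulin kinase gene Camk2d by 0.57 ± 0.11 (limma adjusted p = 0.0109). Cacnb2, a subunit of the voltage-gated calcium channel, rose by 0.56 ± 0.13 (limma adjusted p = 0.0195). The calls of Camk2d and Cacnb2 were lost whichever of the 4 F344 arrays was left out (limma adjusted p = 0.0604 to 0.0873 and 0.09 to 0.141), and that of Atp2b1 without DA replicate 2 or aorta replicate 2 (0.0586 and 0.0658). After centring on brighter genes the Camk2d difference was -0.36 and its call was lost (limma adjusted p = 0.0653). In BN 0 of 38 were called higher or lower (0.986% and 0.82% of all genes), and Cacnb2, at a difference of 0.62 ± 0.13, missed the threshold (limma adjusted p = 0.0503).

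Between the strains, 2 of 38 calcium genes were called higher in BN DA, beside 2.43% of all genes. These were Tmem38a by 0.80 ± 0.15 (SE, limma adjusted p = 0.0234) and the store calcium sensor gene Stim2 by 0.76 ± 0.16 (limma adjusted p = 0.0331). In DA 0 were called lower (2.1% of all genes). In aorta 0 were called higher or lower (0.0827% and 0.0758%). Tmem38a shared with Casq2 a low level in F344 DA, at 6.86 and 6.71, but its BN DA replicates were closer, at 7.47 and 7.69. The Tmem38a call between the strains was lost with only the DA arrays fitted (limma adjusted p = 0.0651). It was also lost without F344 DA replicate 1 or 2, where the difference was 0.88 and 0.73. The Stim2 call was lost under 11 of 18 alternatives, among them each fit that left out 1 array of F344 DA, F344 aorta or BN aorta, with limma adjusted p up to 0.231 (without F344 DA replicate 2, where its difference was 0.56). Among the genes that were not called, Tmem38b (0.73), Ryr3 (0.69) and Itpr1 (0.62) were higher on BN DA replicate 1, and the chaperone gene Hspa5 was 0.61 higher on replicate 2. Ryr3, another release channel, was at 7.24 on BN DA replicate 1 and at 6.31 to 6.94 on the other arrays.

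Whether DA and aorta differed unequally in the strains was tested for the other genes by the interaction. Limma called 0 of the 65 and 0 of all genes (0.0%), while 5 of the 65 and 1403 of all genes had an unadjusted p under 0.05. The fit called 50 and 56 genes without BN DA replicates 1 and 2, of which 0 and 1 were among the 65. In these and the other fits without an array, the lone array of a group is assumed to vary like the other groups. For the members the interaction is a description only. It was 1.28 ± 0.36 (SE) for Casq2, 1.06 ± 0.18 for Pln, 1.04 ± 0.64 for Tnnt2 and 0.70 ± 0.61 for Actc1. For Ryr2, Tnnc1 and Atp2a2 it was 0.64 ± 0.20, 0.10 ± 0.71 and -0.10 ± 0.17. Leaving out each array in turn, it ran from -0.16 to 1.57 for Actc1 and from -0.84 to 1.05 for Tnnc1, so its sign rested on single arrays there.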

How the data were processed

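The authors deposited 1 value per probe set and array on a log2 scale, as judged from the range of 1.07 to 14.15, and the submitters' processing notes name RMA (background correction, normalization between arrays and probe set summary). The sources used here do not give its version and settings, any filter or the annotation build. Per the labels' protocols, biotin-labelled targets made from 150 ng of RNA were hybridised to Affymetrix Rat Gene 1.0 ST arrays. The number of arrays limits the precision. Of 29215 probe sets, 15310 had 1 symbol, 323 had several and 13582 were unnamed here. The brightest probe set of a gene was kept (14506 genes). RefSeq held the Entrez identifiers of 15279 of the named probe sets, with the same symbols.

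One model with a mean per group was fitted to all 8 arrays with limma 3.58.1 in R 4.3.3 (4 residual and 5.2 prior degrees of freedom), two-sided, and a gene was called where its Benjamini-Hochberg adjusted p was under 0.05. Members and lists were chosen with earlier results of these data known. Named beside the members were list genes called in any contrast, up to 4 more per list with BN DA replicates furthest apart and the higher above the median of all values, and the 4 genes nearest in course to each member spanning at least 1 log2 unit. Alternatives covered normalization, dim genes, probe sets, moderation, weights, the replicate number and the arrays used.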

Additional observations from a re-analysis of the deposited data

Results flagged for a closer look

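Pln and Ryr2 drew attention because every DA array lay below every aorta array in F344 and above every aorta array in BN, a pattern shown by 3.8% of all genes. The difference between the strains was not tested for these members. For Pln the BN difference exceeded the F344 difference by 1.06 ± 0.18 (SE), the F344 arrays were separated by 0.01 only, and the F344 difference changed sign after centring on brighter genes (0.09). For Ryr2 it was 0.64 ± 0.20, with arrays separated by 0.26 in F344 and 0.09 in BN.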

How the results depend on the processing

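Leaving out each array in turn (a lone array is assumed to vary like the other groups) gave, for DA against aorta in F344, 646 to 2850 called genes, 2 to 12 of the 65 other sarcomere and calcium genes, and member medians of 0.08 to 0.31. For BN these ran from 16 to 600, 0 to 7 and 0.19 to 0.86. For BN against F344 in DA they ran from 13 to 1233, 0 to 8 and 0.34 to 0.52, and in aorta from 0 to 69, 0 to 1 and 0.04 to 0.17. For the interaction they ran from 0 to 56, 0 to 1 and 0.57 to 1.14. As fitted, 2028, 262, 657, 23 and 0 genes and 7, 1, 4, 0 and 0 of the 65 were called in that order. The cause of these shifts was not tested.

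Centring on brighter genes moved the median of all genes from -0.04 to 0.17 in F344 and from 0 to -0.14 for the strains in DA. It gave 12 of the 65 in F344 and 2 for the strains in DA, and member medians of 0.45, 0.31 and, for the interaction, 0.55. In BN DA against aorta 2 of the 65 were called on repeating the quantile normalization, with probe sets averaged per gene and with a trend, and 3 after cyclic loess. Without dim genes 2 were called among the list genes that remained, and Myoz2 did not remain. In BN against F344 DA 2 were called on repeating the quantile normalization and 2 after cyclic loess. Without dim genes 766 genes were called in F344, but that fit tested fewer genes, only those with a mean above the median of all values. Array weights called 3710 genes in F344 (14 of the 65), 100 in BN, 326 for the strains in DA (2 of the 65) and 54 in aorta. Only the arrays compared gave 3363 (12), 16 (0), 118 (0) and 56. Samples share only a replicate number: the correlations of same-numbered deviations ran from 0.03 to 0.52, and with 2 replicates they cannot show pairing. With the replicate number as a block 2875 genes were called in F344 (11 of the 65), 548 in BN (3), 1583 for the strains in DA, 30 in aorta and 2 in the interaction. No called difference of a named gene changed sign under these alternatives.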
